A study of Mus musculus with 24 samples.

Results

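The sperm-egg fusion genes are a set of 8 genes for proteins of the sperm surface and acrosome that act when a spermatozoon binds to and merges with the egg: Izumo1, Izumo2, Izumo3, Izumo4, Spaca6, Tmem95, Dcst1 and Dcst2. They were taken by symbol from the gene table, in which 7 of the 8 had a row among 24456 genes. The transcript of Dcst2 was not analysed here.

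Levels were measured by RNA-seq in 24 libraries of testis from WT and Atad2 KO mice at postnatal days 20, 22, 24 and 26. There were 4 WT and 4 KO libraries at day 20, 4 and 4 at day 22, 2 and 2 at day 24, and 2 and 2 at day 26. These numbers follow the labels, and the methods of the study give fewer samples for day 20. The labels name the tissue as testis but also refer to purified spermatogenic fractions, and the 7 Sertoli cell markers summed to 912 to 1189 CPM in the libraries of day 20. ATAD2 is a bromodomain ATPase bound to chromatin. The KO allele carries a lacZ cassette that fuses to the first exons of Atad2, and a ubiquitous CMV-Cre removed the neo cassette together with an exon, so reads from upstream exons can still be counted. The allele is carried by every cell of these animals, somatic cells of the testis included. Atad2 itself was at 76.4 to 171 CPM (gene counts scaled to the library total) in WT and 30.8 to 37.1 CPM in KO at day 20, and its log2 fold change, KO over WT, ranged from -1.67 to -1.12 over the 4 days. The highest of these WT values, 171 CPM, was that of replicate 2. At day 26 the difference of Atad2 (-1.25 ± 0.255, SE) was not called (adjusted p = 0.0628 by edgeR). Among the WT libraries of day 20, replicate 2 stood apart over all genes, and the day 20 comparison is given with and without it.

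Fertilization ends with the merging of the sperm and egg plasma membranes. The acrosome reaction first exposes IZUMO1, which binds the receptor JUNO on the egg, and several further sperm membrane proteins are each needed for fusion after this contact. Their genes are transcribed in the testis, mainly in haploid germ cells, long before the proteins are used. Mouse testes of these ages hold the first wave of spermatogenesis, in which meiosis is followed by the first round spermatids and later by elongating ones.

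The upstream sequences of the members are shown because the genes were found to move together with age. Promoter windows of 250 bases before and 50 bases from the start site came from RefSeq on GRCm38.p6 and matched 7 of the 8 members. The 250 upstream bases are printed 5′ to 3′ on the strand of the gene for 5 members, and capitals mark matches on either strand to any of 6 motifs. For Dcst1 and Dcst2 only the stretch between their RefSeq starts is printed, on the plus strand. The cAMP response element was searched as TGACGTCA and in its shorter form as TGACG. The motif of the RFX factors was searched by its part GTTGCC. The remaining motifs were those of the core promoter, TATAAA for the binding of TBP, GGGCGG as the GC box of SP1, and CCAAT as the letters that NF-Y recognises. The short cAMP element lies within the full one. Start sites here are those of RefSeq, and those of Spaca6, Dcst2 and Izumo3 lie inside the gene spans that GENCODE gives.
Izumo1, upstream of the start site, chr7:45621561-45621810, plus strand: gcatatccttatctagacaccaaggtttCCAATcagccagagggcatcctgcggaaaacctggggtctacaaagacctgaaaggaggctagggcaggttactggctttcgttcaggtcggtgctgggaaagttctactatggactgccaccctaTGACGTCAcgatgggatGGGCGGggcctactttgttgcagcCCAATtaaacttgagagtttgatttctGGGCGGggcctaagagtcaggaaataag
Izumo2, upstream of the start site, chr7:44708480-44708729, plus strand: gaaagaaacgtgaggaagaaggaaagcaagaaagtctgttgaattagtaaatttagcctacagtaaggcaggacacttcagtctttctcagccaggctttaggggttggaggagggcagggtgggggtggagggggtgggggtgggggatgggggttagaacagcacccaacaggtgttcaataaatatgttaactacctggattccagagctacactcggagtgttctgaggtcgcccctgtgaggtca
Izumo3, upstream of the start site, chr4:92147222-92147471, minus strand: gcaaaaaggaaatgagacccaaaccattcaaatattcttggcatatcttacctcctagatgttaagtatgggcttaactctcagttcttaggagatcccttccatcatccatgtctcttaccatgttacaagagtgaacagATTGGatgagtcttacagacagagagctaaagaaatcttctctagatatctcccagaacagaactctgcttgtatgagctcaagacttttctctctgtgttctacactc
Spaca6, upstream of the start site, chr17:17830725-17830974, plus strand: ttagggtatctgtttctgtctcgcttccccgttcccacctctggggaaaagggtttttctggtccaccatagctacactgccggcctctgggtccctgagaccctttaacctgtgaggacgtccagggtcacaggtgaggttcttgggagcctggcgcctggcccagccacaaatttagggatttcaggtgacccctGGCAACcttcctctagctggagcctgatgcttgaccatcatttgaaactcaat
Tmem95, upstream of the start site, chr11:69878056-69878305, minus strand: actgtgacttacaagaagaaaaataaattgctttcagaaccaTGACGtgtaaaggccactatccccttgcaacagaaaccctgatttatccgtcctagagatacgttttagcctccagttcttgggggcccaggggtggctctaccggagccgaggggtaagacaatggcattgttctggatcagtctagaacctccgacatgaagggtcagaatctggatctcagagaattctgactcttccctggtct
Dcst1 and Dcst2, from one start site to the other, chr3:89365253-89365319, plus strand: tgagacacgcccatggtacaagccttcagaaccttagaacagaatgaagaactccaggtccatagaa

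The members shared none of these motifs across the set. The full cAMP response element was present in Izumo1, 96 bases before its start site, and in 507 of 27018 RefSeq promoter windows (1.88%). Tmem95 held TGACG alone, 208 bases before its start, a motif found in 21% of promoter windows. GTTGCC lay in the Spaca6 window and in 12.7% of all windows, CCAAT in the windows of Izumo1 and Izumo3 and in 37.9% of all, GGGCGG in those of Izumo1 and Dcst2 (at -163 from the start, outside the printed stretch) and in 35.9% of all, and TATAAA in no window of a member and in 14.2% of all. No motif searched was in the Izumo2 or Dcst1 window, and Izumo4 had no entry. A match is a match of letters, and binding was not measured.

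The genes are on 6 chromosomes of the mm10 build. In the GENCODE M21 annotation, Izumo1 (chr7:45621811-45628823, plus strand) and Izumo2 (chr7:44708742-44719844, plus strand) lie on the same chromosome, 901966 bases apart. Izumo3 is at chr4:92144329-92147234 on the minus strand, Izumo4 at chr10:80702184-80705373 on the plus strand, Spaca6 at chr17:17827158-17843009 on the plus strand and Tmem95 at chr11:69876684-69878018 on the minus strand. Dcst1 (chr3:89350219-89365253, minus strand) and Dcst2 (chr3:89361975-89377549, plus strand) overlap by 3279 bases on opposite strands, with no overlap of exons. Their RefSeq start sites point away from each other, and the stretch of 67 bases shown above runs from one start to the other. Reads were counted by strand, so the Dcst1 count does not take reads of Dcst2. Izumo1 overlaps Rasip1 on the same strand, and reads placed in both genes were left out of the counts.

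Every measured member was higher at day 26 than at day 20 in WT testis, and all but Izumo4 started near the limit of detection. At day 26, 7 of 7 members were called higher than at day 20 in WT and 7 of 7 in KO. These counts are a description, since Izumo2, Tmem95 and Dcst1 were too low at day 20 to pass the filter on low counts without the later days. Across all 17170 genes tested, 24.4% were called higher in WT and 27.2% in KO (edgeR quasi-likelihood test, adjusted p under 0.05). The animals age and the makeup of the testis changes over these days, and in bulk tissue fewer cells of a type and less RNA per cell cannot be told apart.

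IZUMO1 is the sperm ligand of JUNO. In WT testis Izumo1 was at 0.864, 0.527, 0.462 and 0.432 CPM in the 4 libraries of day 20 and at 5.35, 3.68, 4.54 and 3.43 CPM in those of day 22. It then reached 24.5 and 17 CPM at day 24 and 38.4 and 43 CPM at day 26. Each day lay wholly above the one before it. The log2 change from day 20 to day 26 was 6.15 ± 0.577 (SE, adjusted p = 1.49e-07).

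DCST1 is a multipass membrane protein that works with DCST2 in fusion. Dcst1 was at 0.314, 0, 0.0578 and 0.576 CPM in WT at day 20, which is 0 to 8 counts per library. It was at 8.03, 5.35, 6.52 and 5.73 CPM at day 22, at 28.8 and 20.9 CPM at day 24, and at 40.2 and 45.9 CPM at day 26. The ages did not overlap, and the rise from day 20 to day 26 was 7.42 ± 0.763 on the log2 scale (SE, adjusted p = 4.03e-07), of which 4.67 ± 0.755 fell between days 20 and 22.

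Izumo3, whose protein takes part in building the acrosome, followed the same course. Its 4 WT libraries of day 20 had 0, 0.316, 0.116 and 0.648 CPM, and those of day 22 had 6.76, 5.77, 3.96 and 3.78 CPM. At day 26 it was at 30.9 and 31.4 CPM, a log2 change of 6.84 ± 0.754 from day 20 (SE, adjusted p = 7.72e-07). No library of day 20 came near the lowest of day 22.

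Izumo2, a relative of Izumo1 with a less settled role, had 0, 2, 0 and 2 counts in the WT libraries of day 20. It was at 15.6 ± 0.0515 CPM (SD, n = 2) at day 26, at least 66.3-fold higher than the floor of 3 counts per library, which equals a mean of 0.235 CPM at day 20. Tmem95, a membrane protein required for fusion, was the least abundant member: a total of 1 count over the WT libraries of day 20 and 1.57 ± 0.0101 CPM (SD, n = 2) at day 26, at least 6.68-fold above the same floor. Tmem95 passed the filter on low counts through the later days.

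SPACA6 is an immunoglobulin-like protein found with IZUMO1 on the sperm head. Spaca6 was at 1.57, 0.632, 0.347 and 0.72 CPM in WT at day 20 and 2.32, 2.09, 1.92 and 1.38 CPM at day 22. These ranges overlap, and the step of 1.25 ± 0.504 (SE) was not called (adjusted p = 0.0859 by edgeR). The step came later, with 9.87 and 7.95 CPM at day 24 and a log2 change of 2.22 ± 0.472 from day 22 (adjusted p = 0.00794).

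Izumo4 differed from the other members. Its protein lacks the immunoglobulin domain of the other IZUMO proteins. It was at 23.8, 13.5, 18.8 and 22.2 CPM in WT already at day 20, at 44.3, 35.2, 36.6 and 36.5 CPM at day 22, and at 47.5 and 47.3 CPM at day 26. Its rise of 1.27 ± 0.163 (SE, adjusted p = 1.96e-06) lay below those of Izumo1, Izumo3, Spaca6 and Dcst1, which were between 4.14 (Spaca6) and 7.42 (Dcst1) on the log2 scale. Of it, 0.96 ± 0.139 fell between days 20 and 22. The changes from day 22 to day 24 (0.03 ± 0.166, adjusted p = 0.989) and from day 24 to day 26 (0.29 ± 0.192, adjusted p = 0.83) were not called.

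**Figure D1:**
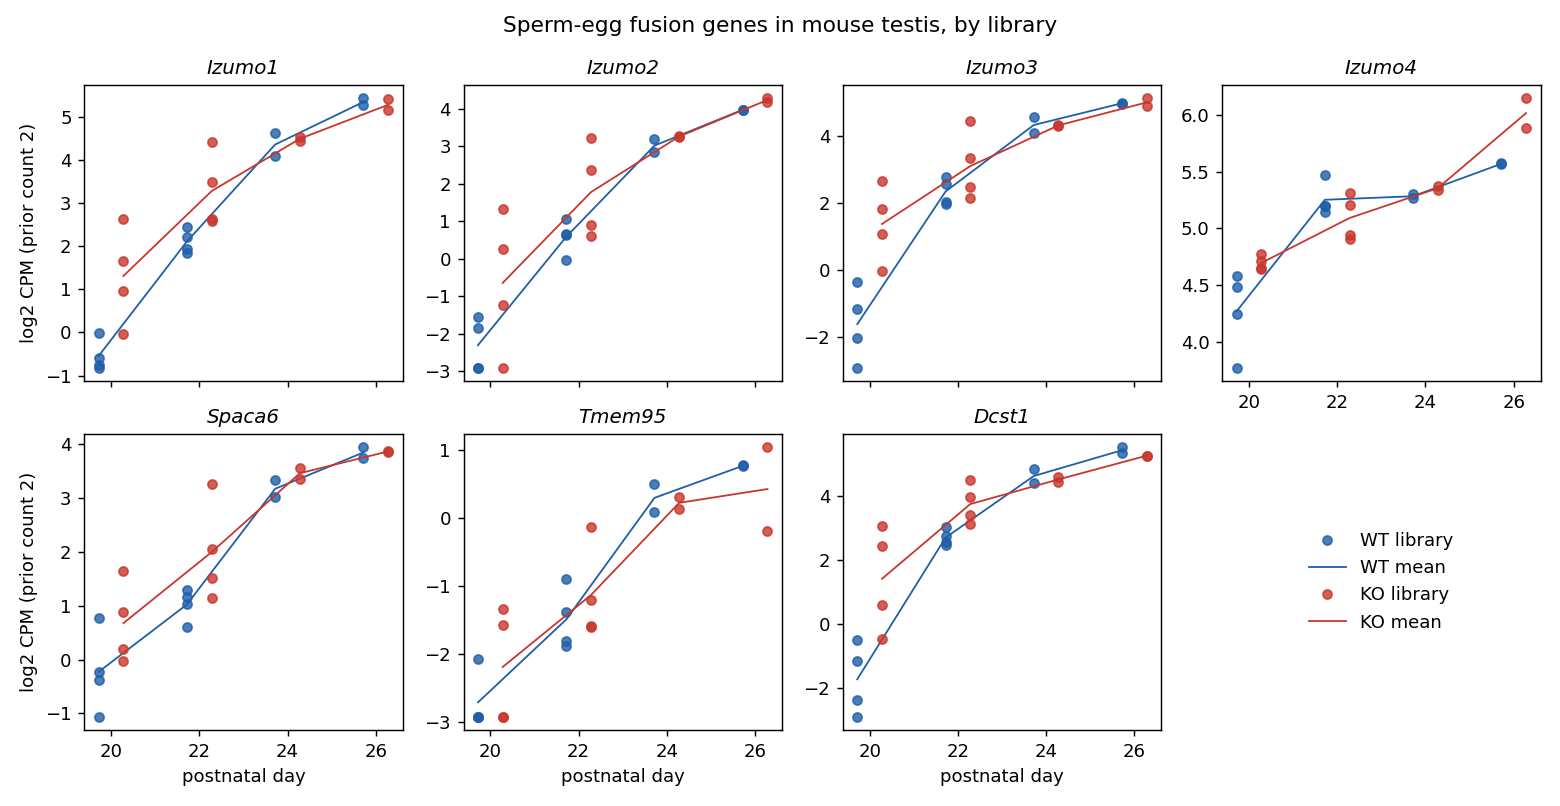
Each panel plots log2 CPM (prior count 2) of 1 gene against postnatal day, 1 point per library, with WT in blue, KO in red and lines through the group means. The spread among the 4 KO libraries at days 20 and 22 is wide for every gene but Izumo4, and at day 26 Izumo4 is at 59.1 and 70.8 CPM in KO and 47.5 and 47.3 CPM in WT.

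As a share of the mean CPM at day 26, the WT levels of day 20 were 1.4% for Izumo1, 0.568% for Izumo2, 0.866% for Izumo3, 5.74% for Spaca6, 1.68% for Tmem95 and 0.55% for Dcst1, against 41.3% for Izumo4. At day 22 those 6 genes had reached 9.13% (Izumo2) to 16.3% (Izumo3) of the day 26 level and Izumo4 80.5%. In KO testis the same shares at day 22 were 23.2% (Izumo2) to 37.2% (Dcst1), and 52.7% for Izumo4. The smaller share of Izumo4 in KO goes with its higher day 26 mean there, 64.9 ± 8.28 CPM against 47.4 ± 0.158 CPM in WT (SD, n = 2 each).

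**Figure D2:**
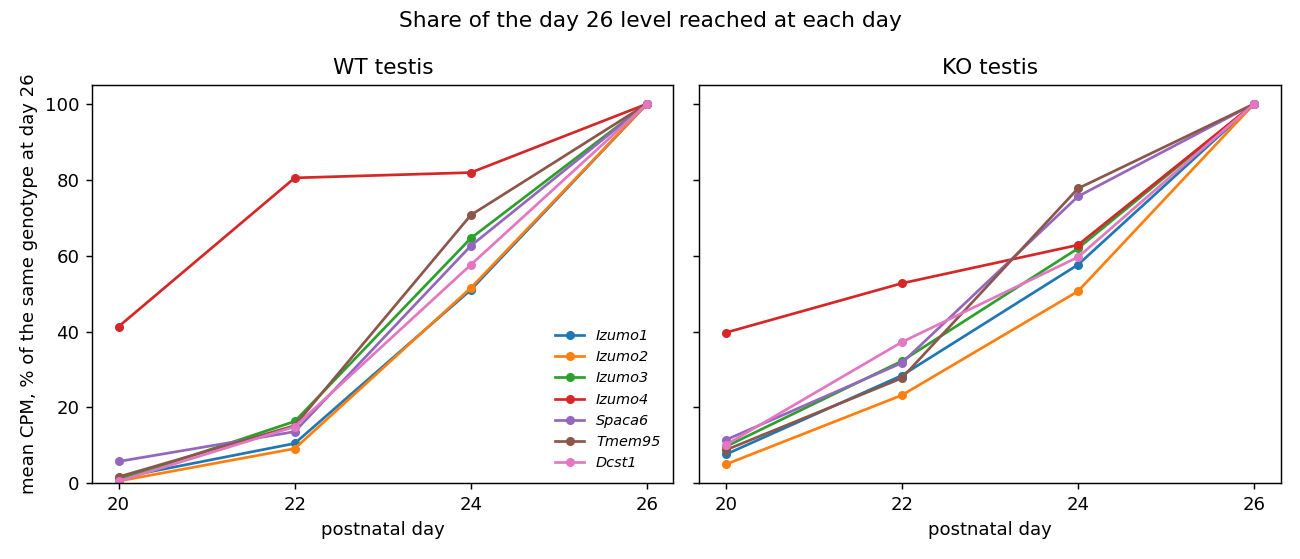
Mean CPM of each member as a percentage of its mean at day 26 in the same genotype, by postnatal day, in WT (left) and KO (right). Izumo4 stands at 41.3% in WT at day 20, where the others stand between 0.55% and 5.74%.

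Step by step, Izumo1, Izumo2, Izumo3, Izumo4 and Dcst1 rose from day 20 to day 22 in WT (12.9% of all genes higher). For Izumo1, Izumo2, Izumo3 and Dcst1 this is a description, since each had at most 11 counts per WT library at day 20 and passed the filter through other groups. Spaca6 was called by DESeq2 (1.26, adjusted p = 0.0417). Tmem95 was called too (adjusted p = 0.0452 by edgeR), but this is a description, since it passed the filter through the later days and its mean of 0.238 CPM at day 22 was only 1.01-fold the floor of day 20. Izumo1, Izumo2, Izumo3, Spaca6 and Dcst1 rose again from day 22 to day 24 (5.88% of all genes), by 1.95 (Dcst1) to 2.48 (Izumo2) on the log2 scale. Tmem95 had 2.18 ± 0.655 for that step (SE, adjusted p = 0.0532). With DESeq2 the step of Izumo2 (adjusted p = 0.112) and of Dcst1 (adjusted p = 0.0937) was not called, and with the replicate number as a block those of Izumo2 (0.0874), Izumo3 (0.105) and Dcst1 (0.0597) were not. Without a filter on low counts the same 3 were not called (adjusted p 0.0563 to 0.0629 by edgeR). With 1 library left out, the calls of this step were lost in 17 of 24 fits for Izumo2, 15 for Izumo3 and 17 for Dcst1, and in 1 for Izumo1 and Spaca6, the fit without WT replicate 1 of day 24. For the first step Tmem95 lost its call in 14 of 24 fits, and the other 5 called members kept theirs in all. For Izumo1, Izumo2, Izumo3 and Dcst1 this is no sign of stability, given their low counts in WT at day 20.

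From day 24 to day 26 edgeR called 0 of 7 members in WT, with 0 at an unadjusted p under 0.05 and 0 by DESeq2. The fitted changes of that step were 0.29 to 0.97 (0.274% of all genes called). Fitted on the 2 groups compared alone, Izumo1 (adjusted p = 0.0375 by edgeR) and Izumo2 (0.0367) were called, and the share of all genes called in that fit is not given here. In KO, Izumo1, Izumo2, Izumo3, Spaca6 and Dcst1 rose from day 20 to day 22 by 1.48 to 2.22 (7.37% of all genes higher). Without KO replicate 1 or 2 of day 20 or KO replicate 2 of day 22 none of these 5 held, and Izumo2 lost its call in 12 of 24 fits. None of the 5 held when only the KO libraries of these days were fitted (adjusted p 0.152 to 0.224 by edgeR), with the same log2 changes, and Izumo2, Izumo3 and Spaca6 were not called with the replicate number as a block (0.0657 to 0.0716). Izumo4 (0.41 ± 0.137, adjusted p = 0.0582) was called by DESeq2 (0.0157), by edgeR with DESeq2's size factors (0.04) and without a filter (0.0462). From day 22 to day 24 edgeR called 0 of 7 members in KO, against 3 at an unadjusted p under 0.05 and 0 by DESeq2 (0.402% of all genes by edgeR). Without KO replicate 2 of day 22, Izumo1 (1.55, adjusted p = 0.0418 by edgeR) and Spaca6 (1.88, 0.00666) were called for this step. From day 24 to day 26 edgeR again called 0 of 7, against 1 at an unadjusted p under 0.05 and 1 by DESeq2. Over all genes edgeR called 0.0116% for that step and had 3459 of 17170 at an unadjusted p under 0.05, and DESeq2 called 912 of 21430. On the KO libraries of days 24 and 26 alone, Izumo1, Izumo2, Izumo3, Izumo4, Spaca6 and Dcst1 were called for that last step (0.39 to 0.97, adjusted p 0.00025 to 0.0437 by edgeR). The share of all genes called in that fit is not given here, so this count stands without a background.

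Per kilobase of exon, Izumo4 had the highest level in all 8 groups, and none of its libraries overlapped with the member below it. In WT at day 26 the order was Izumo4 (39.6 ± 0.132 CPM per kb, SD, n = 2), Izumo1 (27.2 ± 2.19), Izumo3 (24.9 ± 0.309), Izumo2 (24.7 ± 0.0816), Dcst1 (18.4 ± 1.72), Spaca6 (13.3 ± 1.28) and Tmem95 (2.96 ± 0.0189). Only Izumo3 and Izumo2 overlapped among the neighbours in that order. In KO at day 26 Izumo2 (29.6 ± 1.22 CPM per kb) stood above Izumo1 (26.1 ± 3.14) and Izumo3 (25.4 ± 2.95), of which the last pair overlapped. At day 20 in WT every neighbouring pair below Izumo4 overlapped.

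In Atad2 KO testis Dcst1, Izumo3 and Izumo1 were higher than in WT at day 20, and the other 4 members did not pass the test. These 3 of 7 members compare with 2.98% of all tested genes called higher at that day (3.34% called in either direction). Dcst1 passed the filter on low counts through the later days, so its part in this count is a description. The median log2 fold change over the 7 members was 2.37, beside 0.00 over all genes, and 1.98 with Izumo2 and Tmem95 set at the bounds given below. DESeq2 called 4 of 7, adding Izumo2, beside 760 of 21430 genes called higher.

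Dcst1 was at 1.38, 0.589, 5.28 and 8.19 CPM in the 4 KO libraries of day 20, against 0 to 0.576 CPM in WT. The groups did not overlap, although the lowest KO library was close to the highest WT one. The difference was 3.94 ± 0.783 on the log2 scale (SE), with an adjusted p of 0.0106 by edgeR. Since Dcst1 passed the filter on low counts through the later days, this call is a description.

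Izumo3 was at 1.96, 0.85, 3.37 and 6.1 CPM in KO, against at most 0.648 CPM in WT, again with no overlap. The difference came to 3.50 ± 0.778 on the log2 scale (SE), with an adjusted p of 0.0166. Groups with no overlap and KO on top were found for 3 of 7 members at day 20 (Izumo3, Izumo4 and Dcst1), and for 3.03% of all genes.

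Izumo1 was at 1.81, 0.85, 3.04 and 6.1 CPM in KO. The second of these lay just under the highest WT library (0.864 CPM), so that 3 of 4 KO libraries stood above WT. KO exceeded WT by 2.37 ± 0.578 on the log2 scale (SE), with an adjusted p of 0.0258.

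For Izumo2 the KO libraries held 4, 0, 16 and 35 counts, a mean at least 3.95-fold higher than the WT floor, with an adjusted p of 0.164 by edgeR and 0.0188 by DESeq2. Tmem95 held 0, 0, 4 and 3 counts in KO and did not exceed the WT floor. Spaca6 was at 0.85 to 2.98 CPM in KO and overlapped with WT (1.03 ± 0.512, adjusted p = 0.434). Izumo4 was at 24.8 to 27.2 CPM in KO, above every WT library, with a small difference that did not pass (0.39 ± 0.139, adjusted p = 0.164).

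The 4 KO libraries of day 20 were unlike each other. Leaving Izumo4 aside, KO replicate 4 was above every WT library of its age for 6 of 6 members and above every WT library of day 22 for 4 of 6. KO replicate 3 was above all WT of day 20 for 6 of 6 and reached the range of WT day 22 for 3 of 6. KO replicates 1 and 2 were above all WT of day 20 for 4 and 2 of 6, and neither reached the lowest WT library of day 22 for any.

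Single libraries decided which day 20 calls held. WT replicate 2 of day 20 stood apart from its group, with a chi-square per gene of 94.2 to 129 against the other WT libraries and 14 to 28.5 among those. Without it the log2 fold changes were 3.65 for Dcst1 (adjusted p = 0.0467 by edgeR), 3.56 for Izumo3 (0.0579), 2.34 for Izumo1 (0.0822) and 0.24 for Izumo4 (0.28), so that 1 of 7 members was called, and 0 for the average of the days. Without KO replicate 4 the log2 fold changes were 3.27 for Dcst1, 2.93 for Izumo3 and 1.74 for Izumo1, and only Dcst1 was still called. The call of Izumo1 was lost without any 1 of WT replicates 1, 2, 3 and 4 or KO replicates 3 and 4 of day 20 (adjusted p 0.00244 to 0.133 over the 24 fits that leave out 1 library). The call of Izumo3 was lost without WT replicate 1, 2 or 3 or KO replicate 4 (adjusted p 0.00223 to 0.0844), and that of Dcst1 without WT replicate 3 (0.000427 to 0.0581). Fitted on the day 20 libraries alone, 0 members were called by edgeR, with values of 2.36 for Izumo1 (adjusted p = 0.17) and 3.49 for Izumo3 (adjusted p = 0.16), and Dcst1, Izumo2 and Tmem95 then fell under the filter on low counts.

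At day 22 edgeR called 0 of 7 members, against 2.51% of all genes, with 4 at an unadjusted p under 0.05 and 1 by DESeq2, which was Izumo1 (adjusted p = 0.0291). Over all genes 2505 of 17170 had an unadjusted p under 0.05 by edgeR, and DESeq2 called 737 of 21430. Izumo1 was at 5.87, 21.1, 11.1 and 6.1 CPM in KO, all above WT, with a log2 fold change of 1.38 ± 0.417 (SE, adjusted p = 0.0879 by edgeR). Dcst1 was at 8.47, 22.2, 15.6 and 10.5 CPM in KO, also above every WT library (1.15 ± 0.482, adjusted p = 0.252). These were the 2 members of 7 with KO wholly above WT, a state found for 3.64% of all genes.

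Spaca6 (1.26 ± 0.419, adjusted p = 0.123), Izumo2 (1.60 ± 0.624, adjusted p = 0.207), Izumo3 (1.03 ± 0.491, adjusted p = 0.342) and Tmem95 (0.64 ± 0.636, adjusted p = 0.788) had overlapping groups at day 22. Izumo4 had the opposite sign, -0.16 ± 0.136 (adjusted p = 0.726). For Izumo1, Izumo2, Izumo3, Spaca6, Tmem95 and Dcst1 the highest KO library was replicate 2, with 21.4 CPM of Izumo3 where the other 3 KO libraries had 4.29 to 9.89 CPM. Without it the log2 fold changes were 0.85 for Izumo1, 0.91 for Izumo2, 0.38 for Izumo3, 0.62 for Spaca6, -0.02 for Tmem95 and 0.84 for Dcst1.

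At days 24 and 26 the genotypes were close for most members. At day 24 edgeR called 0 of 7 (0.0874% of all genes), with 0 at an unadjusted p under 0.05 and 0 by DESeq2, and the log2 fold changes ran from -0.12 (Dcst1) to 0.29 (Spaca6), with SEs of 0.192 to 0.768. At day 26 edgeR again called 0 of 7 (0.0466% of all genes), with 1 (Izumo4) at an unadjusted p under 0.05 and 0 by DESeq2. Over all genes 1979 of 17170 had an unadjusted p under 0.05 by edgeR. Izumo4 was at 59.1 and 70.8 CPM in KO and 47.5 and 47.3 CPM in WT (0.45 ± 0.191, adjusted p = 0.363). Fitted on the day 26 libraries alone, its adjusted p was 0.0219 by edgeR, and the share of all genes called in that fit is not given here. With 2 libraries a group, KO lay wholly above WT for 3 members at day 24 (Izumo2, Izumo4 and Spaca6) and 2 at day 26 (Izumo2 and Izumo4), beside 22.6% and 27.8% of all genes. Dcst1 lay wholly below at day 26, as did 31.1% of all genes.

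**Figure D3:**
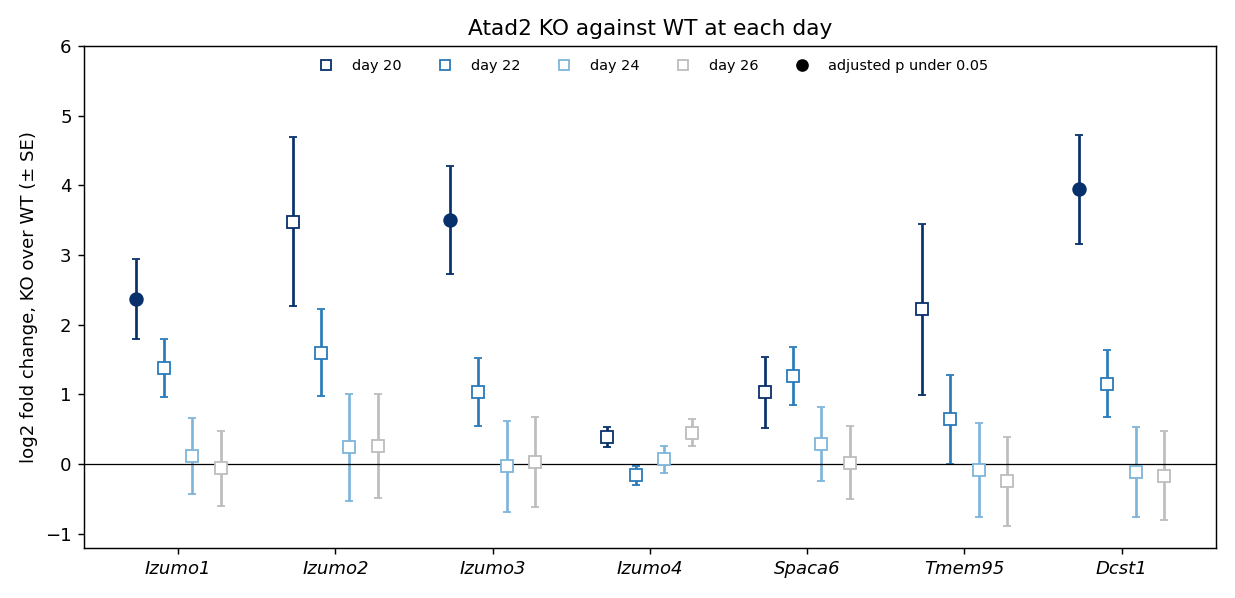
Fitted log2 fold change, KO over WT, with its SE, for each member at each day, filled circles marking an adjusted p under 0.05. The 3 filled circles are Izumo1 (2.37), Izumo3 (3.50) and Dcst1 (3.94) at day 20.

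Averaged over the 4 days, Izumo1 (0.95 ± 0.264, adjusted p = 0.0372), Dcst1 (1.20 ± 0.334, adjusted p = 0.0384) and Izumo3 (1.13 ± 0.333, adjusted p = 0.0464) were called higher in KO, 3 of 7 beside 3.52% of all genes higher. Izumo2 (1.40 ± 0.442, adjusted p = 0.0614), Spaca6 (0.65 ± 0.248, adjusted p = 0.116), Izumo4 (0.19 ± 0.0834, adjusted p = 0.17) and Tmem95 (0.63 ± 0.408, adjusted p = 0.382) were not. Fitted values of Izumo2, Tmem95 and Fimp that draw on WT at day 20, where every library had at most 3 counts, depend on the prior count and are no bounds. DESeq2 called 4 of 7, adding Izumo2 (adjusted p = 0.0461), beside 1036 of 21430 genes called higher. Izumo2 was also called by edgeR without KO replicate 2 of day 20 or KO replicate 1 or 4 of day 22. The calls were near the threshold. With 1 library left out they were lost in 15 of 24 fits for Izumo1 (adjusted p 0.00922 to 0.102), 17 for Izumo3 (0.0168 to 0.116) and 15 for Dcst1 (0.00666 to 0.101), and without a filter on low counts none was called. All 3 held without any 1 of KO replicates 1 and 2 of day 20, WT replicate 1 of day 22 or KO replicates 1, 2 and 4 of day 22.

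The KO effect at day 26 minus that at day 20 was -4.12 ± 1.05 for Dcst1 (log2, SE, adjusted p = 0.175 by edgeR), -3.47 ± 1.04 for Izumo3 (adjusted p = 0.206) and -2.43 ± 0.8 for Izumo1 (adjusted p = 0.237). edgeR called 0 of 7 members for this difference, against 4 at an unadjusted p under 0.05 and 2 by DESeq2. Over all genes edgeR called 0 and had 1857 of 17170 at an unadjusted p under 0.05, and DESeq2 called 216 of 21430. Without KO replicate 2 of day 20, edgeR called Dcst1 (adjusted p = 0.0141), Izumo3 (0.0452) and Izumo1 (0.0482), all negative, and with the replicate number as a block Dcst1 (adjusted p = 0.02). In the joint test over the 4 days edgeR called 0 members (adjusted p 0.327 to 0.888), against 4 at an unadjusted p under 0.05 and 2 by DESeq2. Over all genes edgeR called 0.00582% and had 1556 of 17170 at an unadjusted p under 0.05, and DESeq2 called 264 of 21430.

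At days 20 and 22 round spermatid markers moved with the members. All 8 listed round spermatid markers (Acrv1, Tssk1, Tssk2, Catsper1, Catsper3, Spata16, Actl7b and Tex36) were tested and none was at 0 in all libraries of a group. In KO at day 20, 7 of the 8 were called higher by edgeR, beside 2.98% of all genes, with a median log2 fold change of 3.38. At days 22, 24 and 26, 0 of the 8 were called. Their summed level was 182 to 272 CPM in WT and 255 to 359 CPM in KO at day 20, and 384 to 504 and 388 to 868 CPM at day 22. These sums overlap between the genotypes at both days. At day 26 the sum was 1151 to 1235 CPM in WT and 1334 to 1408 CPM in KO.

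Elongating spermatid markers moved the same way, with 4 of 8 called higher in KO at day 20, beside the same 2.98% of all genes. Their median log2 fold change was 3.44, and their summed level 1.26 to 8.78 CPM in WT and 5.95 to 114 CPM in KO. The 5 Leydig cell markers summed to 246 to 349 CPM in WT and 258 to 651 CPM in KO at that day, and their mean centred log2 level was above all 4 WT libraries (-1.275 to -0.9295) in KO replicates 1, 3 and 4 (-0.3771, 0.06493 and 0.2827). The part of the Leydig cells in the result was not tested. Summed markers of spermatogonia were at 245 to 280 CPM in WT and 210 to 260 CPM in KO, and those of early meiosis at 927 to 1743 and 888 to 1273 CPM. The pachytene markers, which enter the stage score below, summed to 2802 to 3587 CPM in WT and 3396 to 4232 CPM in KO at day 20.

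Summed levels of endothelial and peritubular markers ranged lower in KO. The 3 endothelial markers summed to 57 to 91.2 CPM in WT and 44 to 64.3 CPM in KO at day 20, and to 52.1 to 57.9 and 21.7 to 44.7 CPM at day 22. The 4 peritubular markers summed to 581 to 1008 and 492 to 639 CPM at day 20, and to 481 to 714 and 243 to 498 CPM at day 22. At days 24 and 26 the summed elongating spermatid markers lay wholly higher in KO, at 789 to 1580 CPM against 471 to 572 CPM in WT and at 3203 to 3271 CPM against 1930 to 3044 CPM. Of these 8 markers edgeR called 0 at either day. With 2 libraries a group, 22.6% and 27.8% of all genes lay wholly above WT. At day 26 the sums of pachytene and round spermatid markers were wholly higher in KO too. Those of Leydig, peritubular, macrophage, endothelial and spermatogonial markers were wholly lower. The part of these cells in the values of the members was not tested.

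A stage score was taken as the mean centred log2 CPM of the round spermatid markers minus that of 8 pachytene markers. It was -2.96 ± 0.767 in WT and -0.86 ± 1.24 in KO at day 20, and -0.20 ± 0.212 and 0.66 ± 0.63 at day 22 (SD, n = 4 each). At day 24 it was 1.42 and 1.44, and at day 26 2.03 and 1.83 (means, n = 2 each). The highest scores among KO libraries of day 20 (0.43) and day 22 (1.41) belonged to replicate 4 and replicate 2. These libraries had the highest levels of Izumo1, Izumo2, Izumo3, Spaca6 and Dcst1 in their groups.

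When the stage score was added to the model, 0 of 7 members were called at day 20 and 0 for the average of the days. The day 20 log2 fold change was then 1.04 for Dcst1 (adjusted p = 0.48), 0.95 for Izumo3 (adjusted p = 0.633) and 0.07 for Izumo1 (adjusted p = 0.978). Izumo2 (-0.91), Spaca6 (-0.72) and Tmem95 (-0.10) changed sign. The mean score itself differed between the genotypes at day 20 (-2.96 in WT and -0.86 in KO). Genotype and score therefore cannot be told apart by this fit, and the cause of the lost calls was not tested.

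**Figure D4:**
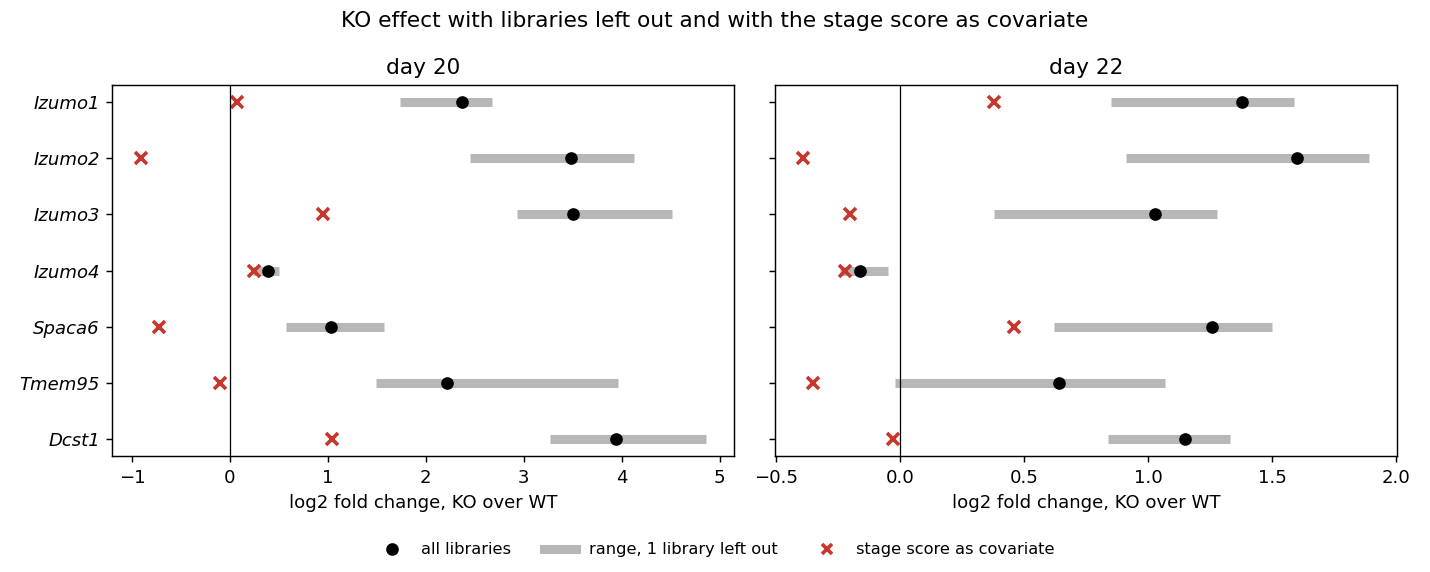
Log2 fold change, KO over WT, of each member at days 20 and 22, with all libraries (black points), the range when 1 library is left out (grey bars), and with the stage score as covariate (red crosses). At day 20 the cross lies at 1.04 for Dcst1 and 0.07 for Izumo1, where the points lie at 3.94 and 2.37.

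Across the 24 libraries the log2 level of the members followed the stage score, with Pearson r from 0.854 (Izumo4) and 0.881 (Tmem95) to 0.992 (Dcst1). As deviations from the group means, r was 0.953 for Dcst1, 0.858 for Izumo2, 0.826 for Izumo3, 0.774 for Izumo1, 0.658 for Spaca6, 0.472 for Tmem95 and 0.283 for Izumo4. The libraries share age, genotype and depth with the score, so these values are descriptions over 24 points. No member is in a marker list.

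**Figure D5:**
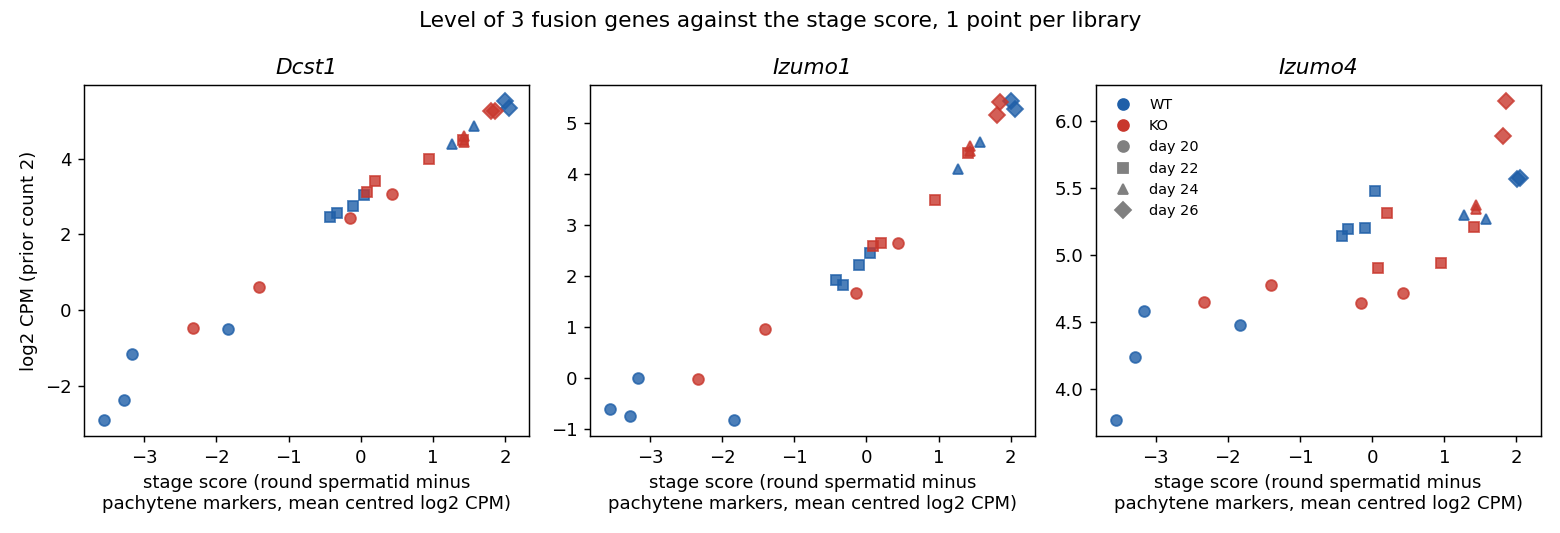
Log2 CPM of Dcst1, Izumo1 and Izumo4 against the stage score, 1 point per library, coloured by genotype and shaped by day. The points of Dcst1 (r = 0.992) form a narrow band, and those of Izumo4 (r = 0.854) spread more widely, with the KO libraries of day 26 on top.

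Between members, r over the 24 libraries ran from 0.742 (Izumo4 with Tmem95) to 0.980 (Izumo1 with Izumo2). Within groups it reached 0.877 (Izumo1 with Spaca6), and the 6 pairs that hold Izumo4 had -0.343 to 0.434. Among 15434 genes with a mean of at least 1 CPM, the gene most like Dcst1 was Catsper1 (r = 0.997), the pore of the sperm calcium channel and 1 of the round spermatid markers, followed by Nt5c1b and Slc22a14. Closest to Izumo3 were 4933405O20Rik, Llcfc1 (0.994), itself a gene required for fusion, and 4930522H14Rik.

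The genes most like Izumo1 were Smkr-ps (r = 0.994), 1700013D24Rik and Mbd3l1. Izumo2 was nearest to Fam205c (r = 0.991), Aqp7 and Sqrdl, and Izumo4 to Ndrg3 (r = 0.981), Catsper2 and Fam131a. Spaca6 came nearest to Col22a1 (r = 0.982), Adam1a and Nupr1l, and Tmem95 to 1700001K23Rik (r = 0.952), Prkcq and Sqrdl. All these correlations share the same 24 libraries.

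The other genes of gamete binding were taken from a list of 30, all tested. Crisp1 in this list is also 1 of 4 epididymis markers, whose sum ran from 0.31 to 716 CPM between the WT libraries of day 24. At day 20, 10 of 30 were higher in KO and 0 lower by edgeR, beside the 2.98% of all genes called higher, with a median log2 fold change of 0.43. They were 3 of 9 genes of fusion and adhesion, 1 of 8 chaperones and processing enzymes, and 6 of 13 genes of zona binding and the acrosomal matrix. Round spermatid markers were higher at that day too, as given above. Adding the stage score to the model left 0 of the 30 called. The count was 2 without WT replicate 1, 2 without WT replicate 2, 1 without WT replicate 3 and 2 without KO replicate 4 of day 20, and 0 when only the day 20 libraries were fitted.

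Among the fusion and adhesion genes, Fimp, needed for fusion, had 0 to 2 counts per library in WT at day 20 and 1 to 29 in KO (adjusted p = 0.0166). Eqtn, equatorin of the acrosomal membrane, was at 0.231 to 1.47 CPM in WT and 1.7 to 12.6 CPM in KO (2.99 ± 0.664, adjusted p = 0.0166). The KO libraries of Eqtn lay wholly above WT, and those of Fimp overlapped with it.

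In the acrosomal group, the hyaluronidase gene Hyal5 was at 0 to 0.936 CPM in WT and 0.915 to 14.9 CPM in KO at day 20 (4.35 ± 0.953, adjusted p = 0.0154). Zp3r, a zona-binding protein of the acrosomal matrix, was at 0.393 to 1.37 and 0.981 to 16.8 CPM (3.51 ± 0.665, adjusted p = 0.00904). Spaca3 (3.84 ± 0.857, adjusted p = 0.0166) and Spaca4 (2.86 ± 0.651, adjusted p = 0.0183) were higher as well, and so was the chaperone gene Pdilt (3.37 ± 0.741, adjusted p = 0.0158).

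At day 22, 2 of 30 were called higher, beside 1.26% of all genes, Tmem81 (1.01 ± 0.241, adjusted p = 0.0302), the partner of IZUMO1 and SPACA6, and the chaperone gene Calr3 (1.82 ± 0.44, adjusted p = 0.0333). Calr3 was at 1.41 to 2.35 CPM in WT and 2.24 to 15.2 CPM in KO, and overlapped. No gene was called without WT replicate 2, 3 or 4 or KO replicate 2 or 3 of day 22, and 1 without WT replicate 1. The count was also 0 with the stage score as covariate, with the replicate number as a block and on the day 22 libraries alone. At days 24 and 26 edgeR called 0 of 30, against 2 and 0 at an unadjusted p under 0.05 and 0 and 0 by DESeq2. For the average of the 4 days, 7 of 30 were higher, beside 3.52% of all genes: Fimp (1.40), Calr3 (0.91), Spaca4 (1.08), Hyal5 (1.45), Eqtn (1.10), Spaca3 (1.25) and Zp3r (1.06), with adjusted p of 0.0237 to 0.046. That count was 0 with the stage score as covariate and 2 without a filter on low counts. It ranged from 0 to 11 with 1 library left out, and was 0 or 1 without any 1 library of day 24 or day 26.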

How the data were processed

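RNA was taken from mouse testes, and stranded total RNA libraries depleted of ribosomal RNA were sequenced as read pairs. The values deposited by the authors are raw read counts per gene: reads were aligned to mm10 with STAR 2.7.11b and counted over exons with HTSeq in reverse strand, intersection-strict mode, reads with several alignments left out (per the labels and the methods of the study). DESeq2 1.22.2 is named in the submitters' processing notes. The version of the gene models is not given in the sources used here.

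Libraries held 10709667 to 19491935 counts in genes. HTSeq's own tallies (no feature, 45.11% to 58.54%, and multiple alignments, 4.744% to 13.68%, the highest in WT replicate 2 of day 20) were left out of library sizes and tests. No pair of libraries agreed within sampling noise, and WT replicate 2 of day 20 stood apart from its group. The study calls the samples biological replicates.

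Groups came from the sample titles. Counts were filtered with filterByExpr (minimum count 10), scaled by TMM and fitted over all 8 groups in edgeR 4.0.16 (glmQLFit, glmQLFTest, R 4.3.3), with Benjamini-Hochberg adjustment over 17170 genes and a threshold of 0.05. The scripts were tested on simulated data. Alternatives were DESeq2 1.42.0, its size factors in edgeR, no filter, the stage score as covariate, a replicate block, only the groups compared, and leaving out each library. All members are named, Atad2 as the check of the labels, up to 8 other gamete genes called in a KO contrast with the lowest adjusted p over the mean of the days, and the 3 genes most correlated with each member. The members, the gene lists and the markers were chosen with earlier results of these data known. Genes singled out beyond that rule (Tmem81) were chosen after their values were seen. Floors cover counting error only, and SDs and SEs include the spread between libraries.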

Additional observations from a re-analysis of the deposited data

Results flagged for a closer look

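In 28 groups of 4 libraries (7 members in 4 groups), a library stood apart from the other 3 by Dixon's test in 2. Chance gives such a result in about 1 of 20 groups. Izumo4 in WT at day 22 was at 44.3 CPM in replicate 1 and at 35.2 to 36.6 CPM in the other 3 libraries, a gap of 0.843 of the range. Tmem95 in WT at day 20 had its only count in replicate 2, so that the gap was 1 of the range, and this rests on 1 count.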

How the results depend on the processing

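For the rise from day 20 to day 26, 7 members were called in WT and in KO under each alternative run, left-out libraries included (7 to 7), except that 6 were tested and called in KO when only the groups compared were fitted. For Izumo2, Tmem95 and Dcst1, which pass the filter through the later days, these calls are a description and no sign of stability. Izumo1 and Izumo3 had 5 to 11 and 0 to 9 counts per WT library at day 20, so their calls are read the same way. The stage covariate was not run on age. The KO calls were not the same under each alternative. With the stage score as covariate 0 fusion genes were called at day 20 and 0 over the mean of the days, and 0 other gamete genes at day 20, 0 at day 22 and 0 over the mean. Under that covariate 15 of 42 KO values changed sign: Izumo1 to 0.13 at day 26, Izumo2 to -0.91 at day 20, -0.39 at day 22 and -0.11 over the mean, Izumo3 to -0.20 at day 22, Spaca6 to -0.72 at day 20, Tmem95 to -0.10, -0.35 and -0.16 at day 20, day 22 and over the mean, and Dcst1 to -0.03 at day 22 and 0.07 at day 26, and the difference between days 26 and 20 to 0.06 (Izumo1), 1.55 (Izumo2), 0.88 (Spaca6) and 0.06 (Tmem95). Fitting only the groups compared gave 0 fusion genes at day 20, where fewer genes passed the filter, and 1 at day 26 (Izumo4), and 0, 0 and 4 other gamete genes at days 20, 22 and 26. The shares of all genes called in these fits are not given here. Without a filter 0 fusion genes and 2 others were called over the mean. DESeq2 called 1 fusion gene at day 22 and 2 in the joint test over days. The cause of these shifts was not tested.

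With 1 library left out, fusion genes called ranged from 0 to 4 at day 20, 0 to 1 at day 22, 0 to 4 over the mean and 0 to 1 in the joint test, and were 0 at days 24 and 26. Other gamete genes ranged from 1 to 11 at day 20, 0 to 3 at day 22 and 0 to 11 over the mean. Small log2 values crossed 0: Izumo1 -0.11 to 0.40 (day 24) and -0.17 to 0.08 (day 26), Izumo3 -0.24 to 0.24 and -0.07 to 0.16, Tmem95 -0.02 to 1.07 (day 22), -0.31 to 0.17 (day 24) and -1.04 to 0.31 (day 26), Dcst1 -0.32 to 0.13 (day 24), Spaca6 -0.07 to 0.12 (day 26), the difference between days 26 and 20 of Izumo4 -0.06 to 0.24, its WT step from day 22 to 24 -0.05 to 0.11, and the KO step of Tmem95 from day 24 to 26 -0.46 to 0.89.

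With the replicate number as a block, 3 fusion genes were called at day 20 (Dcst1 4.04, Izumo1 2.29), 41 of 42 KO values kept their side of the threshold and 1 became called (Dcst1, day 26 minus day 20, -4.21, adjusted p = 0.02 by edgeR), and other gamete genes at day 22 fell from 2 to 0. Of 56 values between days, 7 were no longer called under the block: the WT step from day 22 to 24 of Izumo2 (adjusted p = 0.0874 by edgeR), Izumo3 (0.105) and Dcst1 (0.0597), the WT step from day 20 to 22 of Tmem95 (0.0595), and the KO step from day 20 to 22 of Izumo2 (0.0657), Izumo3 (0.0716) and Spaca6 (0.0674). Equal numbers correlated at 0.0705, 0.227, 0.249 and 0.41 at day 20, at -0.459 to -0.0254 at day 22, at 0.39 at day 24 and at 0.416 at day 26. Since not every pair was above 0.1, the numbers were not read as pairs. At day 20 most members had under 10 counts in a WT library, which limits the precision of every fold change there.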
